A study of Mus musculus with 8 samples.

Results

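The genes described here are 8 transcription factor genes that build and maintain the sensory neuron lineage: Runx1, Isl1, Pou4f1, Pou4f2, Pou4f3, Tlx3, Drgx and Esrrg. They were picked by symbol from the 25780 genes of the count files, so the members are 8 of 25780. The choice used no cutoff on expression, but it was made with earlier results of these data known. Drgx stands in the files under its older symbol Prrxl1. Reads were counted in 8 bulk RNA libraries from dorsal root ganglia of mice, which house the cell bodies of sensory neurons, in 4 groups of 2 libraries. The iKO mice carried floxed alleles of Ehmt2, the gene of the histone methyltransferase G9a, together with an inducible Cre from the sensory neuron gene Avil (Avil-iCreERT2/AJwo), and they received CFA (complete Freund's adjuvant, which inflames tissue) or vehicle. The WT mice were littermates lacking Cre, and they received CFA or vehicle in the same way. The left paw was treated in all groups and tissue was taken 14 days later. No group carried Cre without floxed alleles, and the labels do not say whether WT mice carried floxed alleles, which agent induced Cre, or the age, the sex, the side and the spinal level of the ganglia.

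Sensory neurons of the ganglion come from neural crest cells that stop dividing and switch on Isl1 and Pou4f1, a pair of homeodomain factors that end the early neurogenic programme and start the sensory one. Later factors split the neurons into types. Runx1 steers nociceptors, the pain-sensing neurons, towards the non-peptidergic type, and the homeobox factors Tlx3 and Drgx are needed for nociceptors to mature. Pou4f2 and Pou4f3 are close relatives of Pou4f1 that are best known from retinal ganglion cells and inner ear hair cells. Esrrg encodes an orphan nuclear receptor that switches on genes of oxidative metabolism. Many of these genes stay on in the adult ganglion, where G9a, which methylates lysine 9 of histone H3, is among the enzymes that keep chromatin closed.

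The libraries held 26312614 to 42971823 reads, and all 8 members passed the filter on low counts. Ehmt2 averaged 44.6 ± 0.56 CPM (counts scaled for library size and composition) in iKO CFA, 32.8 ± 1.7 CPM in iKO vehicle, 67.8 ± 9.1 CPM in WT CFA and 69.9 ± 6.4 CPM in WT vehicle libraries (SD, n = 2 each). Under vehicle it was lower in iKO, by a log2 fold change of -1.09 ± 0.18 (SE, adjusted p = 0.00655, edgeR), but this call went when WT vehicle library 1 or either iKO vehicle library was left out. Under CFA its difference did not pass (-0.60 ± 0.18, adjusted p = 0.154). Summed over a list of 19 pan-neuronal genes, the level was 20430 to 20570 CPM in iKO CFA, 26440 to 26620 CPM in iKO vehicle, 22770 to 27510 CPM in WT CFA and 13680 to 17490 CPM in WT vehicle libraries. The neuronal sum was thus lowest in the WT vehicle libraries, and both stood apart in lymphocyte and plasma cell RNA too. A list of 14 lymphocyte and plasma cell genes summed to 123 to 132 CPM in iKO CFA, 30.6 to 46.1 CPM in iKO vehicle, 16.1 to 39.2 CPM in WT CFA and 995 to 2292 CPM in WT vehicle libraries, and 1 of the 14 genes was at 0 in each WT CFA library. The WT CFA libraries were unlike each other: library 2 held 1512 CPM of erythroid and megakaryocyte genes and 18970 CPM of Schwann cell genes, against 183 and 7872 CPM in library 1. In bulk RNA, fewer cells of a type and less RNA per cell cannot be told apart.

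**Figure D1:**
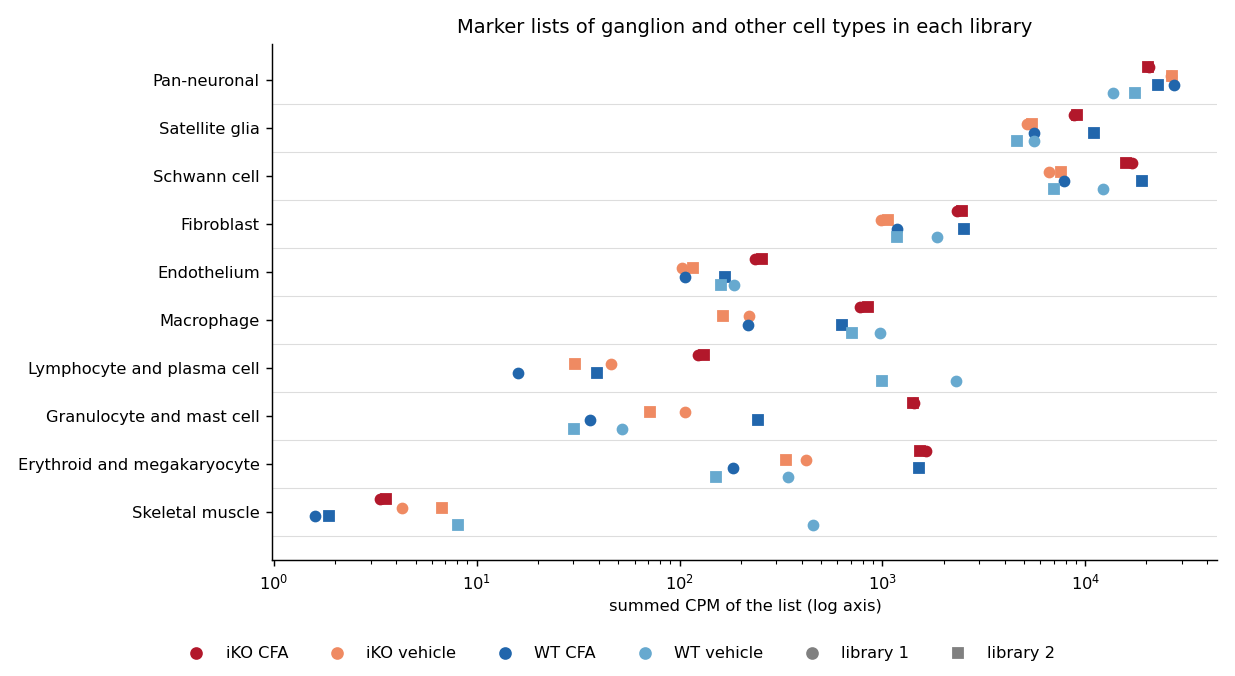
Summed CPM (log axis) of marker gene lists for neurons and other cell types, a point for each of the 8 libraries, coloured by group, with circles for library 1 and squares for library 2. The WT vehicle libraries, at 995 and 2292 CPM, lie above all others in lymphocyte and plasma cell genes and have the lowest pan-neuronal sums.

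Set per kilobase of exon, so that genes of different length can be compared, the members fell into a high and a low set. Tlx3, Pou4f1, Drgx and Isl1 took the first 4 places in every library, and Runx1, Pou4f3, Pou4f2 and Esrrg the last 4. Tlx3 averaged 56.8 ± 9.8 CPM per kb in iKO CFA, 74.9 ± 2.4 in iKO vehicle, 75.3 ± 12.4 in WT CFA and 32.0 ± 6.2 CPM per kb in WT vehicle libraries (SD, n = 2 each). It had the highest mean in every group except WT vehicle, where Pou4f1 averaged 36.4 ± 7.0 CPM per kb. Tlx3 and Pou4f1 did not differ beyond the spread between libraries in WT CFA or WT vehicle, nor did Pou4f1 and Isl1 in WT CFA. Drgx and Isl1 followed, and their order did not differ beyond the spread in iKO CFA, WT CFA or WT vehicle libraries. Runx1 ranked 5 or 6 in each library, at 4.06 ± 0.80 CPM per kb in iKO CFA, 9.28 ± 1.6 in iKO vehicle, 8.70 ± 5.3 in WT CFA and 10.6 ± 1.4 CPM per kb in WT vehicle libraries. Esrrg had the lowest mean in iKO CFA libraries, 1.88 ± 0.069 CPM per kb, and a mean above Pou4f2 in iKO vehicle libraries, 6.60 ± 0.36 CPM per kb, in both cases within the spread of Pou4f2. Exon lengths are those of the GENCODE M21 models on GRCm38, since the gene models behind the counts are not stated.

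The promoters of 3 members on which the results turn are shown to set their composition side by side, each as the 250 bases before the RefSeq transcript start on GRCm38.p6, 5′ to 3′ on the gene's strand, with capitals marking CCAAT, the box bound by the factor NF-Y. Tlx3 and Isl1 are the members that rose with CFA in WT, and Pou4f1 is the member whose level followed the neuronal genes most closely.
Tlx3, chr11:33203589-33203838, minus strand: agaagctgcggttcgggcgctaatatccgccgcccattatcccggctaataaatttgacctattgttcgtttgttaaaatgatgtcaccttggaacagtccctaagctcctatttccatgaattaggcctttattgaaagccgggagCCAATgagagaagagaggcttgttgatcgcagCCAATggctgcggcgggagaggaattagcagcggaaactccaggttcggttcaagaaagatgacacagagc
Isl1, chr13:116309689-116309938, minus strand: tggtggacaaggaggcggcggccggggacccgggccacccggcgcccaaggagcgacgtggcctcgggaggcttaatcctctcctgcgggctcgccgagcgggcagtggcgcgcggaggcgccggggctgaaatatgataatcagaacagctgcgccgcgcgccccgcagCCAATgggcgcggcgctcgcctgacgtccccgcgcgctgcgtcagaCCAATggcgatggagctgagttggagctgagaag
Pou4f1, chr14:104468000-104468249, minus strand: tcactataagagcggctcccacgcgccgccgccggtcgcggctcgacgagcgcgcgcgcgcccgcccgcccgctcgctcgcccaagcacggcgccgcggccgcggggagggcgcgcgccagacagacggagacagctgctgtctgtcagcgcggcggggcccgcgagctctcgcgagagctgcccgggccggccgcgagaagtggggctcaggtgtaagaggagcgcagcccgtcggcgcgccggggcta
The Tlx3 and Isl1 windows each hold CCAAT at 2 places, and the Pou4f1 window holds 0 on either strand. Of the 32851 RefSeq promoter windows of this length, 33.8% hold CCAAT on either strand. Both Runx1 windows and 1 of the 4 Esrrg windows also hold 2, while the Pou4f2 and Drgx windows hold 0. No Pou4f3 window was used here. The Pou4f1 window is 78.0% G and C with 47 CpG dinucleotides, more than in 99.8% of all windows, and the Isl1 window is 71.2% G and C with 33 CpG, more than in 96.0%. The Tlx3 window is 48.8% G and C with 13 CpG, beside a median of 52.4% and 6 CpG over all windows. The counts were aligned to another build (GRCm39), and no position was converted.

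The general factors of sensory neurons are Isl1 and Pou4f1. Isl1, a LIM homeodomain factor, was at 58.9 and 58.2 CPM in iKO CFA libraries, 73.6 and 71.9 CPM in iKO vehicle, 93.9 and 89.8 CPM in WT CFA and 51.0 and 61.3 CPM in WT vehicle libraries. Its libraries agreed closely within each group, and the WT CFA pair lay above all others. Pou4f1, the POU homeodomain factor also called Brn3a, was at 151 and 139 CPM in iKO CFA, 252 and 245 CPM in iKO vehicle, 278 and 158 CPM in WT CFA and 140 and 184 CPM in WT vehicle libraries. WT CFA library 1 had the highest Pou4f1 level of all, while WT CFA library 2 lay between the WT vehicle libraries.

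The 3 factors of nociceptor differentiation differed from each other. Runx1 was at 34.5 and 26.1 CPM in iKO CFA, 77.7 and 60.5 CPM in iKO vehicle, 92.7 and 37.0 CPM in WT CFA and 71.2 and 86.4 CPM in WT vehicle libraries. It was low in both iKO CFA libraries and in WT CFA library 2, and the WT CFA libraries differed by 2.51 times, the widest ratio between libraries of a group for any member. Tlx3 was at 97.8 and 76.5 CPM in iKO CFA, 117 and 112 CPM in iKO vehicle, 129 and 102 CPM in WT CFA and 42.4 and 55.9 CPM in WT vehicle libraries. Both WT vehicle libraries lay below every other library. Drgx, a paired-like homeobox factor, was at 106 and 97.2 CPM in iKO CFA, 180 and 148 CPM in iKO vehicle, 189 and 95.0 CPM in WT CFA and 87.2 and 111 CPM in WT vehicle libraries. As with Pou4f1, its highest library was WT CFA 1, and WT CFA library 2 lay just below the iKO CFA libraries.

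The remaining members were the least abundant. Pou4f2 was at 9.70 and 6.03 CPM in iKO CFA, 20.9 and 13.4 CPM in iKO vehicle, 20.0 and 9.58 CPM in WT CFA and 11.5 and 12.0 CPM in WT vehicle libraries. Its lowest value was in an iKO CFA library, and the higher library of a group exceeded the lower by 1.61 times in iKO CFA, 1.57 times in iKO vehicle, 2.09 times in WT CFA and 1.04 times in WT vehicle. Pou4f3 was at 7.74 and 11.1 CPM in iKO CFA, 17.4 and 17.3 CPM in iKO vehicle, 17.6 and 7.43 CPM in WT CFA and 5.86 and 6.76 CPM in WT vehicle libraries. Its lowest count was 175 reads, in WT vehicle library 1. Esrrg was at 11.0 and 10.4 CPM in iKO CFA, 36.1 and 39.0 CPM in iKO vehicle, 22.9 and 13.8 CPM in WT CFA and 11.7 and 18.7 CPM in WT vehicle libraries. The iKO vehicle libraries lay above and the iKO CFA libraries below all others.

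**Figure D2:**
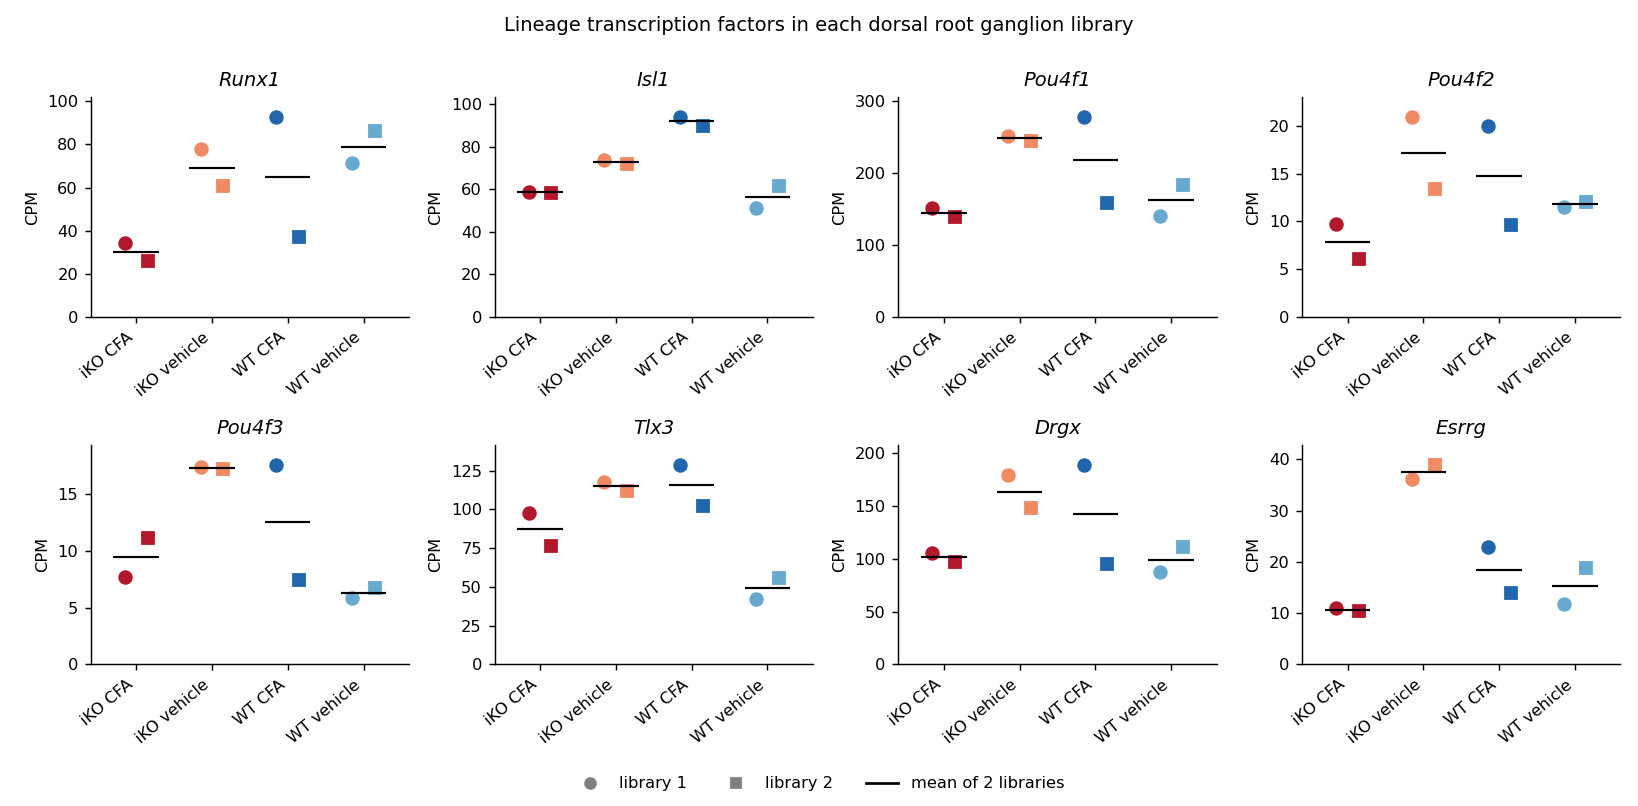
CPM of the 8 genes (vertical axes, each from 0) in the 4 groups, with a circle for library 1, a square for library 2 and a bar at the mean of the 2 libraries. The WT CFA libraries lie apart for Runx1 (92.7 and 37.0 CPM) and close together for Isl1 (93.9 and 89.8 CPM).

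Over the members together, the WT CFA libraries differed more than the libraries of any other group. With each member's log2 CPM centred on its mean over the 8 libraries, the root mean square difference between WT CFA libraries 1 and 2 was 0.92, against 0.36 between the iKO CFA, 0.28 between the iKO vehicle and 0.37 between the WT vehicle libraries. Over all genes it was 1.12 between the WT CFA libraries, against 0.79 between the iKO CFA, 0.64 between the iKO vehicle and 0.64 between the WT vehicle libraries. Over the members, WT CFA library 1 lay nearest to iKO vehicle library 1, at 0.29, and WT CFA library 2 nearest to iKO CFA library 1, at 0.26. The ratio of the higher to the lower WT CFA library was 2.51 for Runx1, 2.37 for Pou4f3, 2.09 for Pou4f2, 1.99 for Drgx, 1.76 for Pou4f1 and 1.66 for Esrrg, but 1.27 for Tlx3 and 1.05 for Isl1. Library 2 was the lower for all 8 members, while its Schwann cell and erythroid sums were the higher; the part of those cells in the member values was not tested.

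The first comparison asks how the ganglion responds to CFA when G9a is intact. Isl1 and Tlx3 rose in WT CFA libraries. The log2 fold change of Isl1 was 0.71 ± 0.17 (adjusted p = 0.0257, edgeR's quasi-likelihood test with Benjamini-Hochberg adjustment over all genes) and that of Tlx3 was 1.23 ± 0.22 (adjusted p = 0.0106), with 2 of 2 CFA libraries above both vehicle libraries in each case. The 2 of 8 members called higher stand beside 8.12% of all 20235 genes tested, and 0 members were called lower, beside 8.71%. Pou4f3 had the largest change that did not pass, 0.99 ± 0.38 (adjusted p = 0.106), and its CFA libraries also lay above those of vehicle. Libraries did not overlap in 3 members, all higher in CFA, beside 25.3% of all genes. Drgx changed by 0.52 ± 0.31 (adjusted p = 0.27), Pou4f1 by 0.43 ± 0.27 (0.307), Pou4f2 by 0.33 ± 0.38 (0.589), Esrrg by 0.27 ± 0.29 (0.559) and Runx1 by -0.28 ± 0.38 (0.647). The median over the members was 0.47, beside -0.03 over all genes, and the pan-neuronal list had a median of 0.49 with 5 of 19 genes called higher. Under scaling to neuronal genes Isl1 had 0.35 (adjusted p = 0.299), and with only the WT libraries in the fit neither was called (Isl1 0.65, adjusted p = 0.191, and Tlx3 1.18, adjusted p = 0.0715). Leaving out WT vehicle library 1 ended the Tlx3 call (1.04, adjusted p = 0.115), and the Isl1 call was lost in each of the 6 fits that left out a library of another group than WT CFA (adjusted p up to 0.207). Without WT CFA library 2, 5 members were called higher, Isl1, Pou4f1, Pou4f3, Tlx3 and Drgx, beside 16.6% of all genes in that fit, and without WT CFA library 1, Runx1 was called lower (-1.10, adjusted p = 0.00327), beside 19.4%.

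In iKO ganglia the fitted CFA response was negative for all 8 members, though no member passed. In WT it was positive for 7 members and negative for Runx1 (-0.28), but these signs were not all stable. The WT response of Pou4f1, Pou4f2 and Esrrg turned negative under scaling to neuronal genes. Without WT CFA library 1 it turned negative for these and Drgx, and without WT CFA library 2 it turned positive for Runx1. In iKO the log2 fold change was -1.81 ± 0.30 for Esrrg (adjusted p = 0.0831, edgeR), -1.19 ± 0.38 for Runx1 (0.109) and -1.12 ± 0.39 for Pou4f2 (0.118). Pou4f3 had -0.88 ± 0.38 (0.168) and Pou4f1 -0.78 ± 0.27 (0.121). Drgx had -0.69 ± 0.31 (0.178), Tlx3 -0.40 ± 0.22 (0.256) and Isl1 -0.31 ± 0.17 (0.246), and under scaling to neuronal genes Tlx3 and Isl1 became positive. In all 8 members both iKO CFA libraries lay below both iKO vehicle libraries, as they did in 35.6% of all genes. The call threshold was rarely reached by any gene in this comparison, since 0.0395% of all genes were called, in either direction, by edgeR. At an unadjusted p under 0.05 there were 5 members among 5791 genes, and DESeq2 called 4 members lower, Runx1, Pou4f1, Pou4f2 and Esrrg. By DESeq2 9.1% of all genes were called lower. With only the iKO libraries in the fit all 8 members were called lower, beside 23.4% of all genes in that fit. Without WT CFA library 1, WT CFA library 2 or both, 6 were, beside 17.6%, 17.7% and 18.7% of all genes. The median over the members was -0.83, beside -0.0011 over all genes. The pan-neuronal list moved with the members, with a median of -0.67 and 0 of 19 genes called, and the granulocyte and mast cell list summed to 1414 to 1428 CPM in iKO CFA libraries, against 71.8 to 107 CPM in iKO vehicle libraries. Their part in the member values was not tested.

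The comparison under vehicle asks how loss of G9a alters the uninflamed ganglion, and 3 members were higher in iKO than in WT. Pou4f3 rose by 1.46 ± 0.38 on the log2 scale (adjusted p = 0.0348), Esrrg by 1.30 ± 0.29 (adjusted p = 0.0212) and Tlx3 by 1.22 ± 0.22 (adjusted p = 0.00966), each with 2 of 2 iKO libraries above both WT libraries. These 3 of 8 stand beside 8.28% of all genes called higher, with 0 members called lower beside 9.33%. The libraries did not overlap in 7 members, all higher in iKO, beside 38.9% of all genes. Drgx differed by 0.72 ± 0.31 (adjusted p = 0.131), Pou4f1 by 0.62 ± 0.27 (0.144), Pou4f2 by 0.54 ± 0.38 (0.349), Isl1 by 0.37 ± 0.17 (0.15) and Runx1 by -0.19 ± 0.38 (0.756). The median was 0.67 over the members and 0.01 over all genes. This comparison and the WT response to CFA share the WT vehicle libraries, which had the lowest pan-neuronal sums and the most lymphocyte and plasma cell RNA. Of the 14 lymphocyte and plasma cell genes, 11 were lower in iKO vehicle and 13 were lower in WT CFA. Of 12 macrophage genes, 11 were lower in iKO vehicle, with summed levels of 164 to 219 CPM in iKO vehicle and 708 to 968 CPM in WT vehicle libraries. Skeletal muscle genes summed to 455 CPM in WT vehicle library 1 and to 1.60 to 8.07 CPM in the other 7 libraries, and 6 of 10 were lower in iKO vehicle. The pan-neuronal list had a median of 0.60 with 4 of 19 genes called higher. The part of those cells in the values of Tlx3, Esrrg, Pou4f3, Runx1 and the other members was not tested. The Tlx3 and Esrrg calls were each lost without WT vehicle library 1 or either iKO vehicle library, and the Pou4f3 call was lost in each of the 6 fits that left out a library of another group than WT CFA (adjusted p up to 0.24). Under scaling to neuronal genes Esrrg had 0.76 (adjusted p = 0.056) and Pou4f3 0.89 (adjusted p = 0.0931).

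Under CFA no member differed between iKO and WT at the threshold. All 8 fold changes were negative, with Pou4f3, Tlx3 and Drgx turning positive under scaling to neuronal genes and Pou4f3 and Drgx without WT CFA library 1. The log2 fold change was -1.10 ± 0.38 for Runx1 (adjusted p = 0.227), -0.91 ± 0.39 for Pou4f2 (0.323), -0.78 ± 0.29 for Esrrg (0.264), -0.65 ± 0.17 for Isl1 (0.113) and -0.59 ± 0.27 for Pou4f1 (0.365). Drgx had -0.49 ± 0.31 (0.5), Pou4f3 -0.41 ± 0.38 (0.652) and Tlx3 -0.41 ± 0.22 (0.426). The iKO libraries lay below both WT libraries in 5 members, Runx1, Isl1, Pou4f1, Tlx3 and Esrrg, beside 16.7% of all genes. By edgeR 0 of 8 members were called, beside 1.7% of all genes in either direction and 0.208% called lower. At an unadjusted p under 0.05 there were 4 members among 2967 genes, and DESeq2 called Isl1 lower, beside 1.68% of all genes. Without WT CFA library 2 all 8 members were called lower, beside 15.4% of all genes in that fit, and without WT CFA library 1 Isl1 alone was, beside 0.815%.

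The difference between the CFA responses, iKO minus WT, was negative for all 8 members, except that Runx1 turned positive under scaling to neuronal genes, and it passed for 3. Esrrg had -2.08 ± 0.42 (adjusted p = 0.022, edgeR), Tlx3 -1.63 ± 0.31 (adjusted p = 0.0185) and Isl1 -1.02 ± 0.24 (adjusted p = 0.0351). All 3 calls ended under scaling to neuronal genes, where Esrrg had -1.04 (adjusted p = 0.0605), Tlx3 -0.61 (adjusted p = 0.134) and Isl1 -0.024 (adjusted p = 0.965). The 3 of 8 stand beside 3.17% of all genes called lower. Pou4f3 had -1.87 ± 0.54 (adjusted p = 0.0615), Pou4f2 -1.46 ± 0.55 (0.115), Pou4f1 -1.21 ± 0.39 (0.0796), Drgx -1.21 ± 0.43 (0.103) and Runx1 -0.91 ± 0.54 (0.277). The median was -1.33 over the members and -1.23 over the pan-neuronal list, of which 5 of 19 genes were called lower, beside -0.04 over all genes. Of the lymphocyte and plasma cell genes 12 of 14 were called higher in this contrast, and of the macrophage genes 8 of 12, beside 6.19% of all genes. The part of those cells in the member values was not tested. For Tlx3 and Isl1 the WT response was called and the iKO response was not, whereas for Esrrg the WT response was 0.27 ± 0.29 and the iKO response -1.81 ± 0.30. Leaving out libraries in turn, Isl1 passed in 2 of 8 fits, those without a WT CFA library, and Tlx3 and Esrrg in 3 of 8, those and the fit without WT vehicle library 2, and all 8 members were called without WT CFA library 2, beside 21.3% of all genes called lower in that fit.

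Averaged over genotypes, 1 of 8 members passed, Esrrg, which was lower with CFA (-0.77 ± 0.21, adjusted p = 0.0468), beside 5.12% of all genes called lower, and this call was lost in each of the 6 fits that left out a library of another group than WT CFA. Averaged over treatments, 0 of 8 members differed between iKO and WT by edgeR, beside 5.58% of all genes. There, 2 members had an unadjusted p under 0.05, among 4570 genes. DESeq2 called 0 members, beside 6.16% of all genes higher and 6.61% lower.

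**Figure D3:**
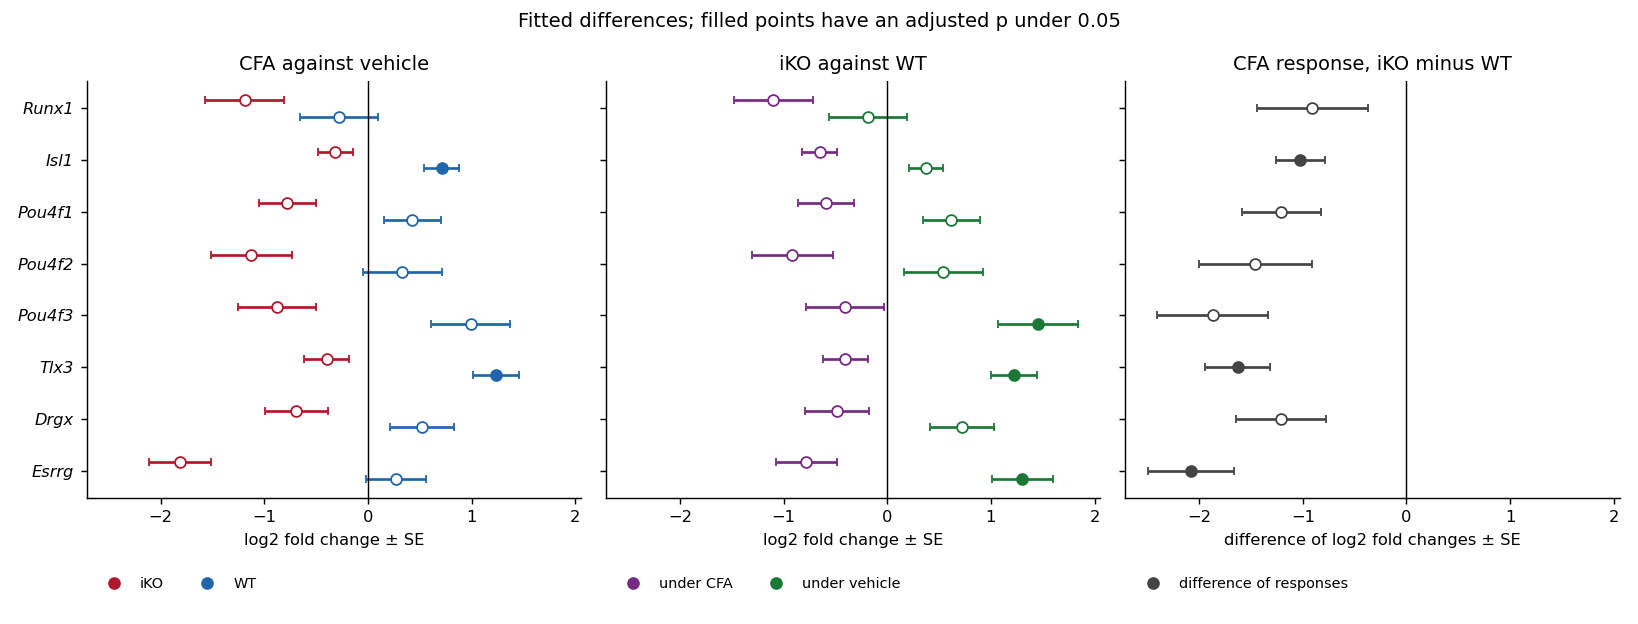
Fitted log2 fold changes (points) with standard errors (bars) of the 8 genes for CFA against vehicle, iKO against WT and the difference between the CFA responses, with filled points where the adjusted p was under 0.05. Filled points are Isl1 and Tlx3 for CFA in WT, Pou4f3, Tlx3 and Esrrg for iKO under vehicle, and Isl1, Tlx3 and Esrrg for the difference of responses.

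Each member was next set against the neuronal RNA of its own library, because the pan-neuronal sums differed between groups. The measure here was the mean log2 CPM of the list, which ordered the libraries otherwise than the sum. Centred over the 8 libraries, it was -0.25 and -0.33 in iKO CFA and 0.36 and 0.33 in iKO vehicle libraries. In WT it was 0.45 and -0.12 in CFA and -0.40 and -0.046 in vehicle libraries, so WT vehicle library 2 was not among the lowest. Pou4f1 followed the mean of the 19 neuronal genes most closely, with a root mean square difference of 0.081 log2 units over the 8 libraries, and Drgx came next at 0.14. The difference was 0.23 for Isl1, 0.34 for Pou4f2, 0.37 for Tlx3, 0.39 for Pou4f3, 0.44 for Esrrg and 0.52 for Runx1. Tlx3 lay at -0.62 and -0.58 log2 units from the neuronal mean in WT vehicle libraries 1 and 2, and above that mean in the 6 others. Esrrg lay at -0.46 in both iKO CFA libraries, against 0.64 and 0.78 in the iKO vehicle libraries. Runx1 lay at -0.43 and -0.76 in the iKO CFA libraries, and at 0.76 and 0.69 in the WT vehicle libraries. Those WT vehicle libraries also held the most lymphocyte and plasma cell RNA, 995 to 2292 CPM. The part of non-neuronal cells in the Runx1 values was not tested. Pou4f3 lay at 0.38 and 0.40 in the iKO vehicle libraries, against -0.42 and -0.57 in the WT vehicle libraries.

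Scaling all libraries to the neuronal list in place of all genes put the median of all genes at -0.42 for CFA in WT and 0.63 for CFA in iKO. It was -0.56 for iKO against WT under vehicle, 0.40 under CFA and 0.97 for the difference of responses. In the main fit these medians were -0.028, -0.0011, 0.015, -0.018 and -0.039, in that order. On that scale Tlx3 was the only member still called, higher with CFA in WT (0.85 ± 0.19, adjusted p = 0.028) and higher in iKO under vehicle (0.67 ± 0.19, adjusted p = 0.0467). Of all genes, 0.712% and 1.55% were called higher on that scale in these comparisons, in that order. Isl1 and Pou4f3 were not called on that scale. Esrrg was just outside the threshold, at 0.76 for iKO against WT under vehicle (adjusted p = 0.056), -1.18 for CFA in iKO (0.0751) and -1.04 ± 0.33 for the difference of responses (0.0605). The neuronal list includes Avil, the gene that drives Cre in iKO mice. Averaged over treatments, Avil was lower in iKO in the main fit (-1.07 ± 0.26, adjusted p = 0.0495, edgeR). It was the 1 of 19 list genes called lower there, with 0 called higher, beside 2.4% and 3.18% of all genes. The part of Avil in this scaling was not tested.

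**Figure D4:**
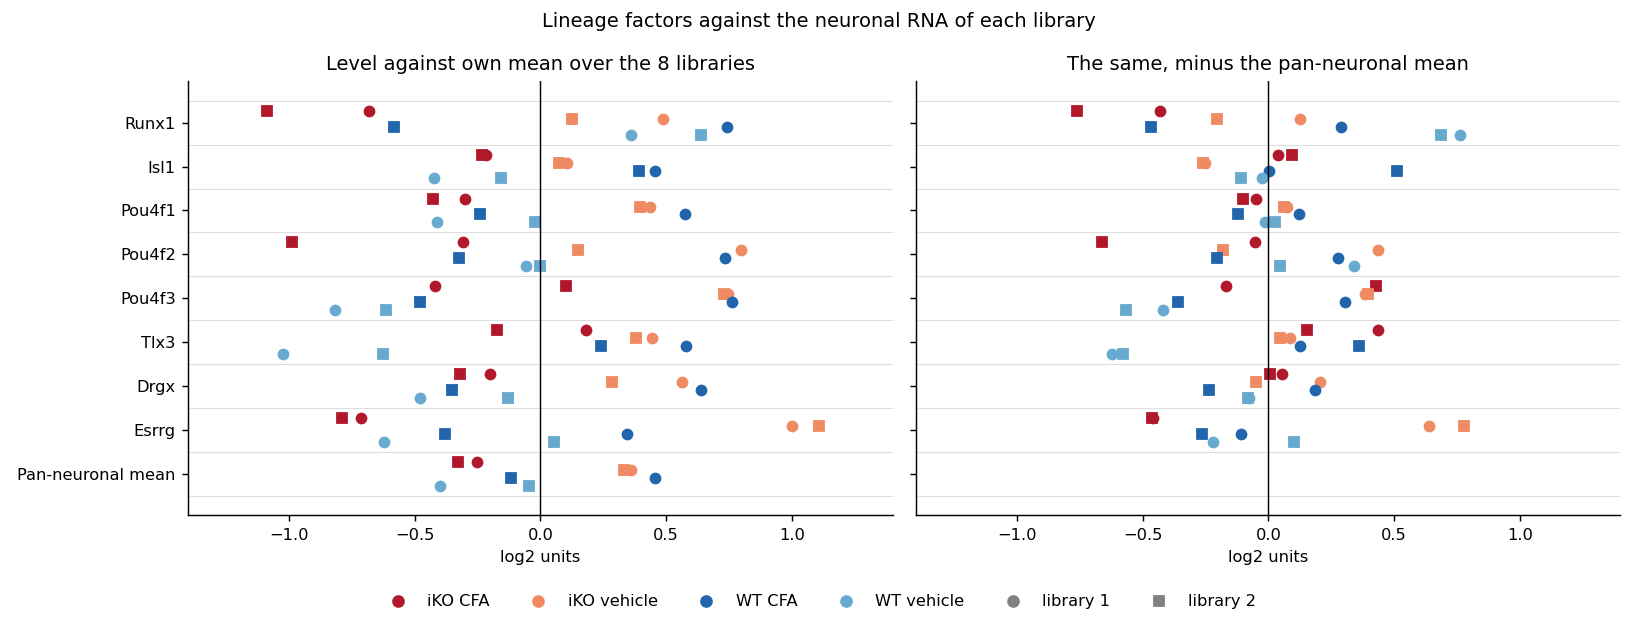
Log2 CPM of each gene in each library against the gene's own mean over the 8 libraries (left) and the same after subtracting the mean of the 19 pan-neuronal genes (right), with circles for library 1 and squares for library 2. Pou4f1 and Drgx close up around 0 on the right, while Esrrg in iKO vehicle libraries stays at 0.64 and 0.78 and Tlx3 in WT vehicle libraries at -0.62 and -0.58.

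Other factors of the sensory lineage are given for context. Of 24 factors for the upkeep and types of sensory neurons, 3 rose and 2 fell with CFA in WT, 0 changed with CFA in iKO, 4 were higher and 2 lower in iKO under vehicle, and 1 was higher in iKO under CFA. Their medians were 0.19, -1.04, 0.49 and -0.62 in that order of comparisons. Of all genes, 8.12% were called higher and 8.71% lower with CFA in WT, and 0.0395% in either direction with CFA in iKO. In iKO under vehicle 8.28% of all genes were called higher and 9.33% lower, and under CFA 1.5% higher. Tlx2, the homeobox relative of Tlx3, was at 153 and 146 CPM in iKO CFA, 142 and 141 CPM in iKO vehicle, 160 and 150 CPM in WT CFA and 45.4 and 57.0 CPM in WT vehicle libraries. Like Tlx3, it was low in the WT vehicle libraries alone. It rose with CFA in WT by 1.60 ± 0.18 (adjusted p = 0.00209) and was higher in iKO under vehicle by 1.46 ± 0.18 (adjusted p = 0.00249), both kept without any library and under neuronal scaling. Its difference of CFA responses was -1.51 ± 0.25 (adjusted p = 0.012), kept in 3 of 8 fits without a library and lost under neuronal scaling (-0.51, adjusted p = 0.219). Sox11, a factor of immature and injured neurons, was lower with CFA in WT and lower in iKO under vehicle (-1.79 ± 0.30, adjusted p = 0.00826, and -1.20 ± 0.29, adjusted p = 0.027), and both calls were lost without WT vehicle library 1, the second also without iKO vehicle library 1 or 2 or iKO CFA library 1. Etv1 and Shox2, factors of muscle and touch afferents, had differences of CFA responses of -1.60 ± 0.35 (adjusted p = 0.0289) and -1.61 ± 0.34 (adjusted p = 0.0265), kept in 3 and 2 of 8 fits without a library and lost under neuronal scaling (-0.56, adjusted p = 0.151, and -0.61, adjusted p = 0.307).

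Early factors act before the members, and 9 of 11 passed the filter on low counts. Of these, 2 rose with CFA in WT, beside 8.12% of all genes, and 0 changed with CFA in iKO, beside 0.0395%. Hes6 was among those that rose (0.94 ± 0.21, adjusted p = 0.0212, kept in 3 of 8 fits without a library). Its call was lost under neuronal scaling (0.62, adjusted p = 0.192). Eya1, a transcriptional cofactor, was at 4.37 and 4.52 CPM in iKO CFA and 3.02 and 3.22 CPM in iKO vehicle libraries, against 0.694 and 0.821 CPM in WT CFA and 0.737 and 0.655 CPM in WT vehicle libraries. Every iKO library was above every WT library. The difference was 2.16 ± 0.37 under vehicle (adjusted p = 0.00814, lost without WT vehicle library 1 or either iKO vehicle library) and 2.55 ± 0.37 under CFA (adjusted p = 0.014, lost without either iKO CFA library). Under neuronal scaling the first call was lost (1.58, adjusted p = 0.0508) and the second kept (2.98, adjusted p = 0.0255).

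Among 16 partners of RUNX and LIM factors, 2 rose and 2 fell with CFA in WT, beside 8.12% and 8.71% of all genes. In iKO 2 were lower under vehicle, beside 9.33% of all genes, and 1 was lower under CFA, beside 0.208%. Runx2, the family member known from bone, was at 3.07 and 3.76 CPM in iKO CFA, 4.17 and 3.79 CPM in iKO vehicle, 3.05 and 1.92 CPM in WT CFA and 12.8 and 11.5 CPM in WT vehicle libraries. It was lower with CFA in WT (-2.29 ± 0.31, adjusted p = 0.00414), kept without any library, and Tle3, a corepressor that RUNX proteins recruit, was lower too (-1.05 ± 0.20, adjusted p = 0.0131, lost without WT vehicle library 1). Ldb2, an adaptor of LIM proteins such as ISL1, rose by 0.85 ± 0.21 (adjusted p = 0.027), kept in 2 of 8 fits. Runx1t1, a corepressor named for its fusion with RUNX1 in leukaemia, was lower in iKO under CFA (-1.07 ± 0.21, adjusted p = 0.0451), also kept in 2 of 8 fits. Neuronal scaling ended the Ldb2 (0.47, adjusted p = 0.127) and Runx1t1 (-0.60, adjusted p = 0.259) calls and kept those of Runx2 and Tle3. On that scale 11.1% of all genes were called lower with CFA in WT, beside 0.712% higher, and it does not adjust for RNA of non-neuronal cells. The WT vehicle libraries, where Runx2 was highest, held 995 to 2292 CPM of lymphocyte and plasma cell genes. The part of those cells in the Runx2 and Tle3 values was not tested.

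Among 7 genes of the Esrrg receptor family and its coactivators, 1 was higher in iKO under vehicle and 1 had a lower CFA response in iKO, in both cases Ppargc1b. Of all genes, 8.28% were called higher in iKO under vehicle and 3.17% had a lower CFA response in iKO. Ppargc1b, a coactivator of the ERR receptors, was at 3.53 and 3.40 CPM in iKO CFA, 14.9 and 13.3 CPM in iKO vehicle, 10.3 and 5.13 CPM in WT CFA and 4.83 and 6.08 CPM in WT vehicle libraries. Both iKO vehicle libraries lay above and both iKO CFA libraries below all others. By group means, Ncoa1 and Ppargc1a were also highest in iKO vehicle and lowest in iKO CFA. Esrrb was highest in iKO vehicle, but its iKO CFA libraries (1.81 and 1.86 CPM) lay between the WT vehicle libraries (1.51 and 2.23 CPM). None of these genes was called. Esrra, Nrip1 and Perm1 did not share that order. Esrra was at 83.2 and 84.6 CPM in iKO CFA and 59.6 and 59.2 CPM in iKO vehicle libraries. The mean of Nrip1 was highest in WT vehicle libraries. Averaged over genotypes, Esrra was called higher with CFA (0.64 ± 0.17, adjusted p = 0.0422, edgeR) and Nrip1 lower (-0.96 ± 0.25, adjusted p = 0.0439). Of all genes, 6.56% were called higher and 5.12% lower in that comparison. The Esrra and Nrip1 calls were not followed under neuronal scaling or in fits without a library. Ppargc1b was higher in iKO under vehicle (1.37 ± 0.34, adjusted p = 0.0276) and its difference of CFA responses was -2.53 ± 0.48 (adjusted p = 0.0183), and these calls were kept in 2 and 3 of 8 fits without a library. Under neuronal scaling the first was lost (0.81, adjusted p = 0.0896) and the second kept (-1.44, adjusted p = 0.0489).

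Some nociceptor genes need Runx1 or Tlx3 during development. Of 14 such genes, 3 rose and 1 fell with CFA in WT, 0 changed with CFA in iKO, 3 were higher and 1 lower in iKO under vehicle, and 0 differed under CFA. Their medians were 0.62, -0.40, 0.66 and -0.62 in that order of comparisons and -1.25 for the difference of responses, beside 0.49, -0.67, 0.60, -0.52 and -1.23 for the pan-neuronal list. Of all genes, 8.12% were called higher and 8.71% lower with CFA in WT, and 0.0395% in either direction with CFA in iKO. In iKO under vehicle 8.28% of all genes were called higher and 9.33% lower, and under CFA 1.7% in either direction. Mrgprx1, a receptor of itch neurons, rose with CFA in WT (1.70 ± 0.22, adjusted p = 0.00316) and was higher in iKO under vehicle (1.17 ± 0.21, adjusted p = 0.0102). Mrgpra3, another itch receptor, and Trpa1, the irritant channel, rose with CFA in WT (1.13 ± 0.22, adjusted p = 0.0139, and 1.03 ± 0.27, adjusted p = 0.0333), and Mrgprb5 was lower (-1.54 ± 0.29, adjusted p = 0.0131). The Mrgpr genes are a family of close copies, so reads may be shared between them. Of the 3 genes that Runx1 restrains, Calca, the peptide CGRP, rose with CFA in WT (1.89 ± 0.37, adjusted p = 0.0133), Met, the receptor of hepatocyte growth factor, was lower (-2.27 ± 0.52, adjusted p = 0.0228) and Oprm1, the mu opioid receptor, had 0.41 ± 0.45 (adjusted p = 0.576). Under neuronal scaling the calls of Mrgpra3 (0.76, adjusted p = 0.0769) and Trpa1 (0.62, adjusted p = 0.0673) were lost. So was that of Mrgprx1 in iKO under vehicle (0.62, adjusted p = 0.0992). The Mrgprx1, Mrgprb5, Calca and Met calls with CFA in WT were kept on that scale, where 0.712% of all genes were called higher and 11.1% lower. The Calca, Met and Mrgpra3 calls were lost without WT vehicle library 1, and the Mrgprb5 call without WT vehicle library 1 or 2. The Trpa1 call was kept in 2 of 8 such fits, and the higher Mrgprx1 level in iKO under vehicle in 5 of 8.

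The neurotrophin receptors Ntrk2 and Ntrk3 were compared for CFA in WT and for iKO against WT under vehicle. Ntrk2, of touch neurons, had 0.36 ± 0.18 (adjusted p = 0.204) and 0.57 ± 0.18 (adjusted p = 0.0604) in these comparisons, in that order. Ntrk3, of muscle afferents, had -0.58 ± 0.44 (adjusted p = 0.393) and 0.48 ± 0.44 (adjusted p = 0.466), and its CFA response in iKO was -1.97 ± 0.45 (adjusted p = 0.0943).

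By root mean square difference of centred log2 CPM over the 8 libraries, the genes nearest to each member were described without a test. Zfhx3 and Cblb (0.077 each) and Piezo2 (0.11), the touch channel, were nearest to Runx1. Trpm4 (0.085) was nearest to Isl1, G3bp2 (0.052) to Pou4f1, Fbxl16 (0.070) to Drgx and Dhcr7 (0.099), an enzyme of sterol synthesis, to Tlx3. Iqcg (0.17) was nearest to Pou4f2 and Kcnk18 (0.16), the potassium channel TRESK of sensory neurons, to Pou4f3. Syt2 (0.17) and the coactivator Ppargc1b (0.17) were nearest to Esrrg. Among the members themselves, Pou4f1 and Drgx were the closest, at 0.10, and Runx1 and Tlx3 the farthest apart, at 0.86. The points are libraries that share depth and cell makeup, so these values are a description of 8 libraries.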

How the data were processed

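Total RNA from dorsal root ganglia was sequenced in 8 libraries. The submitters' processing notes name HISAT2 2.2.1, SAMtools 1.19.2, featureCounts 2.0.6 and DESeq2 (no version) as tools and GRCm39 (mm39) as the genome build. The deposited values are raw counts per gene symbol, with no scaling by the authors. The gene annotation and the strand setting are not given in the sources used here, so reads of Runx1 and the antisense model Gm26626, which shares 106 exonic bases with it in GENCODE M21, may not be told apart. The files hold 0 columns of other samples. Nothing says that the libraries are from separate animals, so p-values reflect only how far these libraries vary, which may be technical.

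Tests used edgeR 4.0.16 in R 4.3.3. The filterByExpr rule kept 20235 genes (99.9% or more of each library's reads), and TMM normalization scaled the library sizes. A quasi-likelihood model with a mean for each of the 4 groups was fitted to all libraries (prior degrees of freedom 4.68, common dispersion 0.0753). Two-sided F-tests were made for 7 comparisons, with Benjamini-Hochberg adjustment over all genes tested and a threshold of 0.05. DESeq2 1.42.0 and the other settings were alternatives, and leaving out the WT CFA or WT vehicle group, and all alternatives for genes other than the members, were added after the data were seen. Members and gene lists were chosen with earlier results of these data known, so their counts are not independent support for each other.

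The members and Ehmt2 were named in every comparison. In other lists the naming rule allowed up to 4 genes per comparison, by smallest p, and all of the Trk and Runx1-restrained lists. Some genes that this rule names are not reported here. Nearest genes were sought among those with mean log2 CPM of 1 or more (prior count 2). Promoter windows come from RefSeq (GRCm38.p6) and were searched on both strands for CCAAT.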

Additional observations from a re-analysis of the deposited data

Results flagged for a closer look

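The CFA response differed between genotypes by a test of the difference itself for 3 members, with iKO minus WT values of -2.08 ± 0.42 for Esrrg (adjusted p = 0.022), -1.63 ± 0.31 for Tlx3 (adjusted p = 0.0185) and -1.02 ± 0.24 for Isl1 (adjusted p = 0.0351), by edgeR's quasi-likelihood test. The calls ended under scaling to neuronal genes, and 0 of the 3 passed without WT vehicle library 1, iKO vehicle library 1 or 2, or iKO CFA library 1 or 2. Groups of 2 libraries are too small to screen for single libraries far from the rest.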

How the results depend on the processing

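Of 624 values of single members under alternatives, 493 kept their direction and their side of the threshold, 45 kept their direction and lost the threshold, 67 gained it and 19 changed sign. For genes other than the members, 543 of 802 values kept both and 259 lost the threshold, with 0 changes of sign. Under scaling to neuronal genes the sign changed for CFA in WT in Pou4f1 (-0.00088), Pou4f2 (-0.14) and Esrrg (-0.13), for CFA in iKO in Isl1 (0.32) and Tlx3 (0.23), for iKO against WT under vehicle in Isl1 (-0.19) and Pou4f2 (-0.036), for iKO against WT under CFA in Pou4f3 (0.14), Tlx3 (0.054) and Drgx (0.039), and for the difference of responses in Runx1 (0.21). Without WT CFA library 1 it changed for CFA in WT in Pou4f1 (-0.045), Pou4f2 (-0.31), Drgx (-0.070) and Esrrg (-0.15), and for iKO against WT under CFA in Pou4f3 (0.35) and Drgx (0.095). Without WT vehicle library 1 it changed for CFA in WT in Esrrg (-0.034), and without WT CFA library 2 in Runx1 (0.23). Over all fits without a library, CFA in WT ran from -1.10 to 0.23 for Runx1, -0.045 to 0.78 for Pou4f1, -0.31 to 0.76 for Pou4f2, -0.070 to 0.93 for Drgx and -0.15 to 0.64 for Esrrg, and iKO against WT under CFA from -0.91 to 0.35 for Pou4f3 and -0.91 to 0.095 for Drgx. No value that changed sign had passed the threshold.

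The number of members called, 2 for CFA in WT, became 1 under neuronal scaling and 0 with only the WT libraries. Of all genes, 0.712% and 0.198% were called higher in these fits. For CFA in iKO the 0 became 4 by DESeq2, 1 without a low-count filter, 1 with the newer dispersion method of edgeR (legacy = FALSE), 8 with only the iKO libraries and 6 without both WT CFA libraries. All were called lower, beside 9.1%, 0.648%, 0.084%, 23.4% and 18.7% of all genes in these fits, in that order. For iKO against WT under vehicle the 3 became 1 under neuronal scaling, 5 with only the vehicle libraries and 5 without both WT CFA libraries. All were called higher, beside 1.55%, 19.7% and 20.2% of all genes in these fits, in that order. Under CFA the 0 became 1 by DESeq2, called lower beside 1.68% of all genes. For the difference of responses the 3 became 6 by DESeq2, beside 9.05% of all genes called lower, and 0 under neuronal scaling, beside 0.133%. For CFA averaged over genotypes the 1 became 3 by DESeq2, 0 under neuronal scaling and 0 with the replicate block. By DESeq2 1 member was called higher and 2 lower, beside 11.4% and 11.8% of all genes. Leaving out 1 library at a time gave 0 to 5 calls for CFA in WT, 0 to 6 for CFA in iKO, 0 to 6 for iKO against WT under vehicle, 0 to 8 under CFA, 0 to 8 for the difference of responses, 0 to 3 for iKO averaged over treatments and 0 to 5 for CFA averaged over genotypes. The cause was not tested. When a library is left out of a group, the lone sample is assumed to vary like the other groups.

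The libraries share only a replicate number. Over 13678 genes the correlation of replicate differences between groups ran from -0.383 to 0.201, which gave no pairing. With the number as a block, 2 members were called for CFA in WT, 2 for iKO against WT under vehicle, with Pou4f3 lost (adjusted p = 0.0544), and 2 for the difference of responses, with Isl1 lost (adjusted p = 0.0636).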
